A study of Oryctolagus cuniculus with 30 samples.

Results

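In 9 probes, a burst of signal seen at wound closure had fallen by day 3. In the deposited values that chose the probes, the day 3 levels were similar in covered and uncovered wounds. The probes are among the 14558 of the AF design class on a rabbit expression array of 23369 probes. The 9 probes come from 7 assembled transcript sequences (contigs) and were chosen on log2 values of the authors' deposited series table. A probe was kept if its highest group mean was at least 9, if the mean at closure was at least 1.5 above that of unwounded skin and of both day 3 groups, if the day 3 groups differed by less than 0.5, and if the day 5 groups differed by less than 0.8. The rise at closure, the fall by day 3 and the likeness of covered and uncovered wounds are therefore what chose the probes. These traits are described here with no test. On the scanner signal that gives the levels below, the day 3 groups differed by 0.74 for UF_Ocu_AF_109290 and 0.54 for UF_Ocu_AF_109291, more than the rule allows. No group was sampled between wounding and closure, so when the rise began is not known. The rule does not ask that the day 3 level return to that of unwounded skin. The tests set the day 5 level of each probe against day 0, day 3 and unwounded skin. The rule bounds only the gap between the day 5 arms, but it chose the members as high at day 0 and as low at day 3 and in unwounded skin. A test against day 0 thus leans toward a fall by the choice, and one against day 3 or unwounded skin toward a rise. Of the 14558 AF probes, 7795 reached the level, 255 of these were raised at closure, 43 of those were down again at day 3 in both arms, 11 of those had close day 3 arms and 9 also had close day 5 arms.

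The samples were epidermis of the ear of female New Zealand White rabbits, hybridised 1 per array (Cy3, 1 colour). Shallow cuts in a grid were made on both ears and dressed with 1 layer of Tegaderm, an adhesive film that slows water loss. New epidermis covered the wound after 2 days, and this moment of closure is day 0 here. The right ear was then left bare and the left ear received 4 further layers. The groups were unwounded skin (n = 2 arrays), wound at day 0 (n = 6), uncovered wound at day 3 (n = 6), covered wound at day 3 (n = 5), uncovered wound at day 5 (n = 6) and covered wound at day 5 (n = 5). Wounds of all groups had thus been under 1 film layer until day 0, and no labelled group shows a wound that was never covered. To part epidermis from dermis, tissue stood for 30 min in 0.5 M ammonium thiocyanate. The labelling reaction took 400 ng of RNA. The age of the animals is not given in the sources used here.

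When epidermis is cut, keratinocytes at the wound edge leave their normal programme of differentiation, migrate and divide until the gap is closed, and then stratify again and rebuild the water barrier. Many transcripts of this response are known to be short-lived, rising while the sheet closes and falling once it is continuous. In a bulk sample of epidermis, a lower signal from fewer cells of a type cannot be told apart from less RNA per cell.

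The array is a custom rabbit design, and its files pair none of the 9 probes with a gene. The sequences below are therefore the identity of the members. They are the 60-base probes as the deposited scanner files give them, and all 9 are shown because a reader can place them on a transcript. Capitals mark the only AATAAA, the hexamer that commonly precedes a polyadenylation site.
UF_Ocu_AF_103234: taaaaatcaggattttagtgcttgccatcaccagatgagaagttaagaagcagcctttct
UF_Ocu_AF_103233: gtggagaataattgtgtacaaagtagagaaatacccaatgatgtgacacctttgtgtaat
UF_Ocu_AF_109290: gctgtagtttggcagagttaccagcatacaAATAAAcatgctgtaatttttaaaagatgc
UF_Ocu_AF_109291: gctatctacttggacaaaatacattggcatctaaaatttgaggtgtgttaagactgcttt
UF_Ocu_AF_107098: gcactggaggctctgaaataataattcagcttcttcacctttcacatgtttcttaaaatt
UF_Ocu_AF_104176: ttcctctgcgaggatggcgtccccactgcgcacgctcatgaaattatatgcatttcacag
UF_Ocu_AF_111380: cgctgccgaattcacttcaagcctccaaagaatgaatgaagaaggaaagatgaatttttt
UF_Ocu_AF_107838: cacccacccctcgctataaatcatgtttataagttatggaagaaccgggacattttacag
UF_Ocu_AF_110379: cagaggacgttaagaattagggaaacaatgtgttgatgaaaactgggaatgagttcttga

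UF_Ocu_AF_103234 and UF_Ocu_AF_103233 are probes to the same contig, as are UF_Ocu_AF_109290 and UF_Ocu_AF_109291, so each pair may read 1 transcript and is not independent evidence. Within those pairs the longest common run of letters was 5 and 6 bases, and no member shared a stretch of 20 bases with any other probe of the array. The hexamer AATAAA, searched on both strands, was present in 1 of the 9 members on the given strand, against 8.593% of AF probes on that strand and 3.737% on the other. Base composition leaned to A and T. The GC content of the members had a median of 38.33% (range 35% to 51.67%), against a median of 45% over AF probes. The members other than UF_Ocu_AF_104176, 8 in all, were at or below 41.67% GC, as were 38.5% of AF probes. That limit is the second highest value among the members, so the count of members under it was set in advance. The figures for the hexamer and for GC are descriptions, and neither was tested.

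Levels below are log2 processed intensities minus the 75th percentile of the same array, taken over 7446 probes that every array detected well above background, so that 0 is the level of that percentile. A level of 1 probe is not compared with that of another. Between 39.65% and 50.42% of probes were well above background on an array. Of the members, 7 were well above background on all 30 arrays and none had a saturated spot. The arrays came from 11 slides scanned on 3 days. Of the 6 uncovered day 3 arrays, replicate 5 was the highest for 5 members and replicate 6 for the other 4. These replicates lay on slides 11 and 2, which also held day 0 replicates 4 and 5. Unwounded replicate 2 and covered day 5 replicate 1 made up slide 6, the only slide of its scan day. The part of slide or scan day in the results was not tested beyond the values given below.

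**Figure D1:**
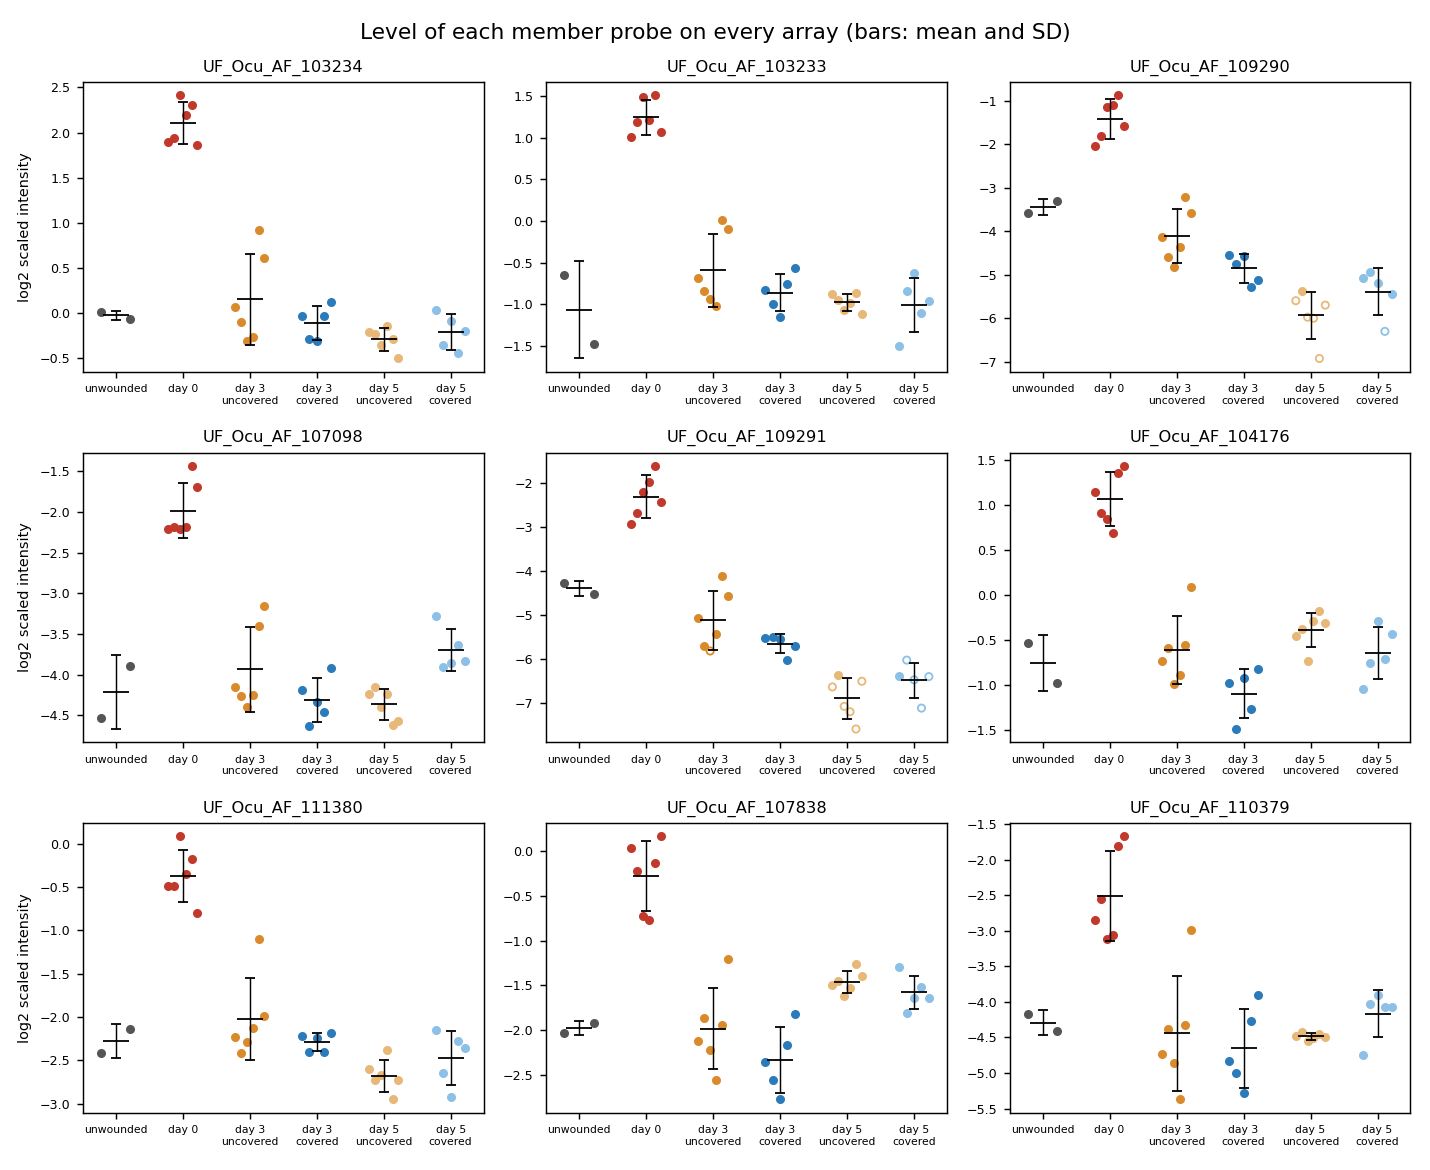
Log2 scaled intensity (y axis, a separate range in each panel) of the 9 member probes in the 6 groups (x axis). Each point is 1 array, open points were not well above background, and bars give the mean and SD. Day 0 arrays lie above all other arrays in 8 panels. In the panel of UF_Ocu_AF_110379 an uncovered day 3 array reaches -3.00, above 2 of the day 0 arrays.

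UF_Ocu_AF_103234 and UF_Ocu_AF_103233 share a contig. For UF_Ocu_AF_103234 the unwounded arrays read 0.01 and -0.07. The day 0 arrays ran from 1.86 through a median of 2.07 to 2.41. At day 3 the uncovered arrays ran from -0.31 through -0.02 to 0.92, and the covered arrays read -0.04, -0.29, -0.32, -0.04 and 0.12. By day 5 the uncovered arrays lay between -0.51 and -0.15 (median -0.27), and the covered arrays read 0.03, -0.35, -0.09, -0.45 and -0.20. The day 0 group stood clear of every other group, and the day 5 arrays overlapped the day 3 arrays in both arms. The mean difference between day 0 and unwounded skin was 2.13 (SE 0.24) for UF_Ocu_AF_103234 and 2.31 (SE 0.25) for UF_Ocu_AF_103233. For UF_Ocu_AF_103233 the unwounded arrays themselves lay far apart, at -0.65 and -1.48, and the array of slide 6 was the lower.

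The contig of UF_Ocu_AF_109290 and UF_Ocu_AF_109291 fell further than any other. For UF_Ocu_AF_109290 the unwounded arrays read -3.58 and -3.32, and the day 0 arrays ran from -2.04 through -1.36 to -0.88. The uncovered day 3 arrays then ran from -4.81 through -4.26 to -3.21, and the covered ones read -4.55, -4.76, -4.57, -5.27 and -5.13. At day 5 the uncovered arrays lay between -6.93 and -5.38 (median -5.84), and the covered ones read -5.09, -4.93, -5.19, -6.30 and -5.45. Every day 5 array was below both unwounded arrays. The second probe of the contig, UF_Ocu_AF_109291, had group means of -2.31 at day 0, -4.39 in unwounded skin, -5.12 and -5.66 in uncovered and covered wounds at day 3, and -6.89 and -6.48 at day 5. The day 5 signals were near the detection limit. UF_Ocu_AF_109290 was well above background on 1 of 6 uncovered and 4 of 5 covered day 5 arrays, and UF_Ocu_AF_109291 on 1 of 6 and 1 of 5. Differences that involve those groups are given below also at a floor, with each day 5 array set no lower than the faintest signal well above background on it.

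UF_Ocu_AF_107838, the only probe of its contig on the array, went back up after day 3. Its unwounded arrays read -2.03 and -1.92, and its day 0 arrays ran from -0.77 through -0.18 to 0.16. The uncovered day 3 arrays ran from -2.56 through -2.03 to -1.21, and the covered ones read -2.35, -2.56, -2.77, -2.16 and -1.82. The uncovered day 5 arrays lay close together, between -1.62 and -1.26 (median -1.47), and the covered ones read -1.29, -1.80, -1.64, -1.52 and -1.64. All 11 day 5 arrays were above both unwounded arrays and below all day 0 arrays.

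For UF_Ocu_AF_111380 the group means were -2.28 ± 0.19 (SD, n = 2) in unwounded skin, -0.37 ± 0.30 (SD, n = 6) at day 0, -2.02 ± 0.48 (SD, n = 6) and -2.29 ± 0.10 (SD, n = 5) in uncovered and covered wounds at day 3, and -2.68 ± 0.19 (SD, n = 6) and -2.47 ± 0.31 (SD, n = 5) at day 5. UF_Ocu_AF_107098 went from -4.21 ± 0.46 (SD, n = 2) in unwounded skin to -1.99 ± 0.34 (SD, n = 6) at day 0. Its covered day 5 arrays read -3.28, -3.91, -3.86, -3.63 and -3.83, above the uncovered day 5 arrays, which ran from -4.62 to -4.15. That gap lies inside what the rule allowed and was not tested. UF_Ocu_AF_104176 read -0.53 and -0.98 in unwounded skin and between 0.69 and 1.44 at day 0. Its group means in uncovered and covered wounds were -0.61 and -1.09 at day 3 and -0.39 and -0.64 at day 5. UF_Ocu_AF_110379 had the widest day 3 groups, from -5.37 to -3.00 in uncovered and from -5.28 to -3.90 in covered wounds. Its uncovered day 5 arrays were the tightest group of any member, at -4.49 ± 0.05 (SD, n = 6).

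Against day 0, day 5 levels were lower for every member in both arms. The log2 difference ranged from -4.58 to -1.18 in uncovered wounds and from -4.17 to -1.30 in covered wounds, and it was smallest in size for UF_Ocu_AF_107838 in both arms. The largest values belong to the contig of UF_Ocu_AF_109290 and UF_Ocu_AF_109291, whose order depends on signals near background. At the floor the differences were -4.28 and -3.61 in uncovered and -3.91 and -3.87 in covered wounds, so that the order of the 2 probes turned. In limma's fit over all 30 arrays, with Benjamini-Hochberg adjustment over the 12342 tested probes, 9 of 9 members fell in uncovered wounds, where 21.4% of tested probes fell and 44.1% rose, and 9 of 9 in covered wounds, where 18% fell and 38.1% rose. The largest adjusted p was 6.85e-06 in uncovered and 8.03e-05 in covered wounds. No day 5 array of either arm overlapped the day 0 arrays for any member, which held for 15.1% and 10.5% of tested probes in the lower direction. The median over members was -2.31 and -2.10, against 0.47 and 0.33 over all tested probes. The rule chose the members as high on these same day 0 arrays, and the tested probes at large were not so chosen. The counts, shares and p-values against day 0 thus lean toward a fall by the choice and are no independent support for it. Within the slides that held both groups, all 9 members were lower in uncovered day 5 wounds on slides 7 and 11 (differences from -5.22 to -0.75) and in covered wounds on slide 2 (from -5.49 to -1.38). These differences use the same day 0 arrays and lean toward a fall in the same way.

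Between day 3 and day 5 some members were called lower and some higher. The rule chose all of them as low on these same day 3 arrays, so the comparisons lean toward a rise in both arms. In uncovered wounds 4 of 9 fell, where 16.4% of tested probes fell, and 1 of 9 rose, where 28.4% rose (limma, adjusted p under 0.05). The median change was -0.43 over members and 0.27 over all tested probes. UF_Ocu_AF_109290 fell by 1.81 (SE 0.28, adjusted p = 1.64e-05) and UF_Ocu_AF_109291 by 1.77 (SE 0.27, adjusted p = 1.01e-05), measured against a day 5 group in which 1 of 6 arrays was well above background. At the floor the differences were -1.58 and -0.80, with no test. These were the 2 members whose uncovered day 5 arrays were all below the day 3 arrays, as held for 7.99% of tested probes. UF_Ocu_AF_111380 fell by 0.65 (SE 0.18, adjusted p = 0.00521). UF_Ocu_AF_103234 fell by 0.44 (SE 0.17, adjusted p = 0.0346), but the change was -0.14 (adjusted p = 0.437) without uncovered day 3 replicates 5 and 6, and its call was also lost when uncovered day 3 replicate 5 or 6, or uncovered day 5 replicate 3, 5 or 6, was left out alone (adjusted p from 0.053 to 0.131). The fall was not called with normexp background correction (limma adjusted p = 0.0775), with no filter on dim probes (0.0761) or with slide as a fixed block (0.072) either. UF_Ocu_AF_107838 rose by 0.53 (SE 0.19, adjusted p = 0.0261). That rise was 0.30 (adjusted p = 0.22) with the percentile taken over all probes and 0.44 (adjusted p = 0.0582) after quantile normalization, and its call was lost without uncovered day 3 replicate 3 or 4 or uncovered day 5 replicate 5 (adjusted p from 0.056 to 0.0829). The call was also lost with no filter on dim probes (limma adjusted p = 0.0547). UF_Ocu_AF_103233 changed by -0.38 (SE 0.18, adjusted p = 0.0827), and by -0.47 (adjusted p = 0.0452) without uncovered day 3 replicate 4. With the percentile over all probes it changed by -0.62 (adjusted p = 0.00746), and it was also called with slide as a random block, with scan day as a block and without slide 6 (adjusted p from 0.0465 to 0.0474). UF_Ocu_AF_107098 changed by -0.43 (SE 0.20, adjusted p = 0.0807), and by -0.52 (adjusted p = 0.0434) without uncovered day 3 replicate 3. It was called lower in 3 other settings: -0.86 (adjusted p = 0.00268) after quantile normalization, -0.66 (adjusted p = 0.0197) with the percentile over all probes and -0.60 (adjusted p = 0.00367) in the authors' series table. Without uncovered day 5 replicate 5 the count was 3 of 9 members. On the 4 slides that held both days, UF_Ocu_AF_107838 was higher at day 5 by 0.41 to 0.63, and the differences of UF_Ocu_AF_109290 ran from -2.80 to -0.78, slide 11 with uncovered day 3 replicate 5 giving the widest.

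In covered wounds 2 of 9 members rose between day 3 and day 5, where 15.1% of tested probes rose, and 1 of 9 fell, where 7.19% fell. For a set of 9 probes these counts are near those shares. UF_Ocu_AF_107838 rose by 0.75 (SE 0.21, limma adjusted p = 0.0125), and the call held under every alternative run. Each run kept a member chosen as low in covered day 3 wounds, so each leans toward a rise and is no independent support for it. Within slides 3 and 9 the differences of UF_Ocu_AF_107838 were 0.52 and 0.76. UF_Ocu_AF_107098 rose by 0.61 (SE 0.22, limma adjusted p = 0.0481) and UF_Ocu_AF_109291 fell by 0.83 (SE 0.29, limma adjusted p = 0.0427), both close to the threshold. The days did not overlap for the 2 members that rose, as held in that direction for 13.1% of tested probes, nor for the 1 that fell, as held for 6.26%. The median change was -0.10 over members and 0.12 over all tested probes. UF_Ocu_AF_107098 lost its call without any 1 of covered day 3 replicates 1 to 4 or covered day 5 replicates 1 to 5 (adjusted p from 0.0538 to 0.121). Its rise was 0.33 (adjusted p = 0.332) after quantile normalization, 0.22 (adjusted p = 0.369) in the authors' series table, 0.41 (adjusted p = 0.281) with normexp background correction and 0.47 (adjusted p = 0.175) with the percentile over all probes. It was not called with scan day as a block, without slide 6 or with no filter on dim probes either. The call for UF_Ocu_AF_109291 was lost without covered day 3 replicate 1, 2, 3 or 5 or covered day 5 replicate 3, 4 or 5 (adjusted p from 0.0566 to 0.12). Its difference was -0.41 (adjusted p = 0.0907) in the authors' series table, -0.58 (adjusted p = 0.282) with normexp and -0.71 (adjusted p = 0.15) with slide as a fixed block, and -0.53 at the floor, with no test. The call was lost with no filter on dim probes too. The count was 1 of 9 without covered day 3 replicate 1, 2 or 3 or covered day 5 replicate 3, 4 or 5. UF_Ocu_AF_104176 changed by 0.45 (SE 0.19, limma adjusted p = 0.086), and by 0.55 (limma adjusted p = 0.0415) without covered day 5 replicate 1. It was called with slide as a fixed block (adjusted p = 0.0353) or random block (0.0349), scan day as a block (0.0348), the replicate block (0.0492), array weights (0.0023) and without slide 6 (0.0378) too, with changes of 0.45 to 0.55. UF_Ocu_AF_109290 changed by -0.53 (SE 0.31, limma adjusted p = 0.208), and by -0.48 at the floor, with no test. The fall called for UF_Ocu_AF_109291 was thus not called for the other probe of its contig. UF_Ocu_AF_110379 changed by 0.49 (SE 0.33, limma adjusted p = 0.284). With array weights alone, UF_Ocu_AF_109290 (-0.75, limma adjusted p = 0.00755) and UF_Ocu_AF_110379 (0.83, limma adjusted p = 0.0011) were called in covered wounds too. Whether the change from day 3 to day 5 differed between the arms was not tested, since the rule bounds it.

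**Figure D2:**
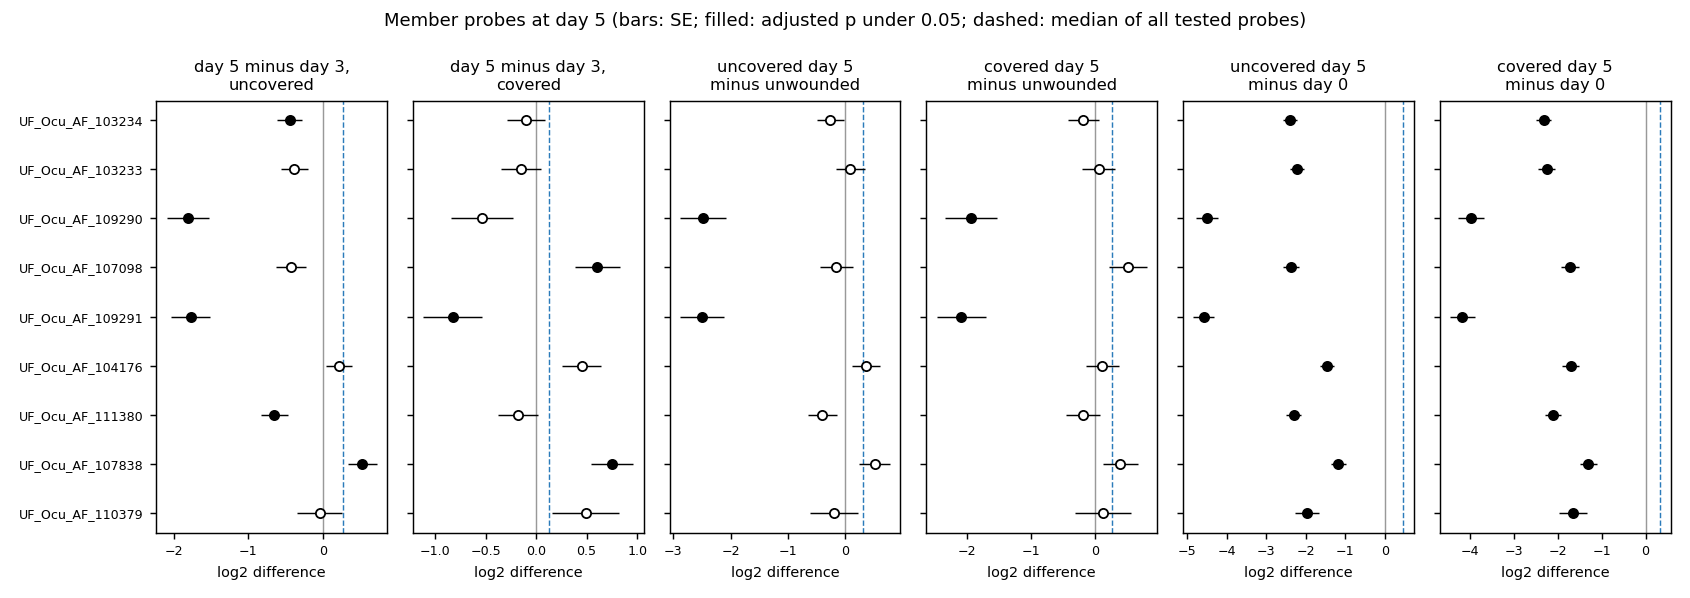
Log2 difference (x axis, a separate range in each panel) of the 9 member probes in the 6 tested comparisons, with bars for the SE. Filled points had a limma adjusted p under 0.05, and the dashed line is the median of all 12342 tested probes. UF_Ocu_AF_109290 and UF_Ocu_AF_109291 lie furthest to the left in the panels against unwounded skin, at -2.48 and -2.50 in uncovered wounds.

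Against unwounded skin, 2 of 9 members were lower at day 5 in each arm, UF_Ocu_AF_109290 and UF_Ocu_AF_109291 of the same contig. In uncovered wounds, where 10.4% of tested probes were lower and 21.9% higher, UF_Ocu_AF_109290 differed by -2.48 (SE 0.40, limma adjusted p = 6.88e-05) and UF_Ocu_AF_109291 by -2.50 (SE 0.38, limma adjusted p = 3.01e-05). In covered wounds, where 1.27% of tested probes were lower and 6.6% higher, the differences were -1.94 (SE 0.41, limma adjusted p = 0.00314) and -2.09 (SE 0.39, limma adjusted p = 0.000835). At the floor, unwounded skin was brighter than uncovered day 5 wounds 4.78-fold for UF_Ocu_AF_109290 and 2.88-fold for UF_Ocu_AF_109291, and brighter than covered ones 3.72-fold and 3.46-fold. The covered call for UF_Ocu_AF_109290 was lost without unwounded replicate 2 (-1.81, limma adjusted p = 0.0846), with slide as a fixed block (-1.64, limma adjusted p = 0.062), with array weights (limma adjusted p = 0.061) and without slide 6 (limma adjusted p = 0.0774). With the normexp background correction, UF_Ocu_AF_109291 differed by -0.90 (limma adjusted p = 0.125) in uncovered and by -1.31 (limma adjusted p = 0.142) in covered wounds. Within slide 5 the uncovered differences were -2.02 and -2.36, and within slide 6 the covered ones were -1.77 and -1.88.

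The other 7 members did not pass the test against unwounded skin at day 5 in either arm. With slide as a fixed block, UF_Ocu_AF_107838 did in uncovered wounds (0.66, limma adjusted p = 0.0419), which made 3 of 9 members called there, 1 of them higher. Their differences ran from -0.40 for UF_Ocu_AF_111380 to 0.51 for UF_Ocu_AF_107838 in uncovered wounds, with SEs from 0.24 to 0.43. All uncovered day 5 arrays were below both unwounded arrays for 4 of the 9 members and above them for 1, as held for 17.2% and 31.3% of tested probes. The covered ones were below for 2 and above for 1, as held for 6.43% and 17%. In covered wounds the differences of the other 7 ran from -0.19 for UF_Ocu_AF_111380 to 0.51 for UF_Ocu_AF_107098. The median over the 9 members was -0.19 in uncovered and 0.06 in covered wounds, against 0.31 and 0.26 over all tested probes. With 2 unwounded arrays, which were also chosen as low, a difference of this size is not resolved, and these values do not show a return to the unwounded level.

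Each contig on this design usually carries a pair of probes, and 6 of the 7 member contigs have a second AF probe. In the other 4 of these contigs that second probe is not a member, and its values, from the same deposited table the rule used, show how far the contigs behave as a unit. UF_Ocu_AF_111379, the second probe of the contig of UF_Ocu_AF_111380, missed the rule by its gap to uncovered day 3, which was 1.48. UF_Ocu_AF_110380, paired with UF_Ocu_AF_110379, was 1.40 above unwounded skin at day 0, against 1.51 for the member. UF_Ocu_AF_104177, paired with UF_Ocu_AF_104176, was 1.21 above unwounded skin and 1.93 above covered day 3. UF_Ocu_AF_107097, paired with UF_Ocu_AF_107098, did not share the burst: its day 0 mean was -0.07 from unwounded skin where that of UF_Ocu_AF_107098 was 1.84 above it. On the scaled scanner signal the day 0 mean of UF_Ocu_AF_107097 differed from unwounded skin by -0.30, and its day 5 means by 0.52 in uncovered and 0.43 in covered wounds. UF_Ocu_AF_107097 was also among the brightest probes of the array, at the 99.8th percentile, and was saturated on 1 array. The longest run of letters common to those 2 probes was 7 bases. Why they differ was not tested.

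**Figure D3:**
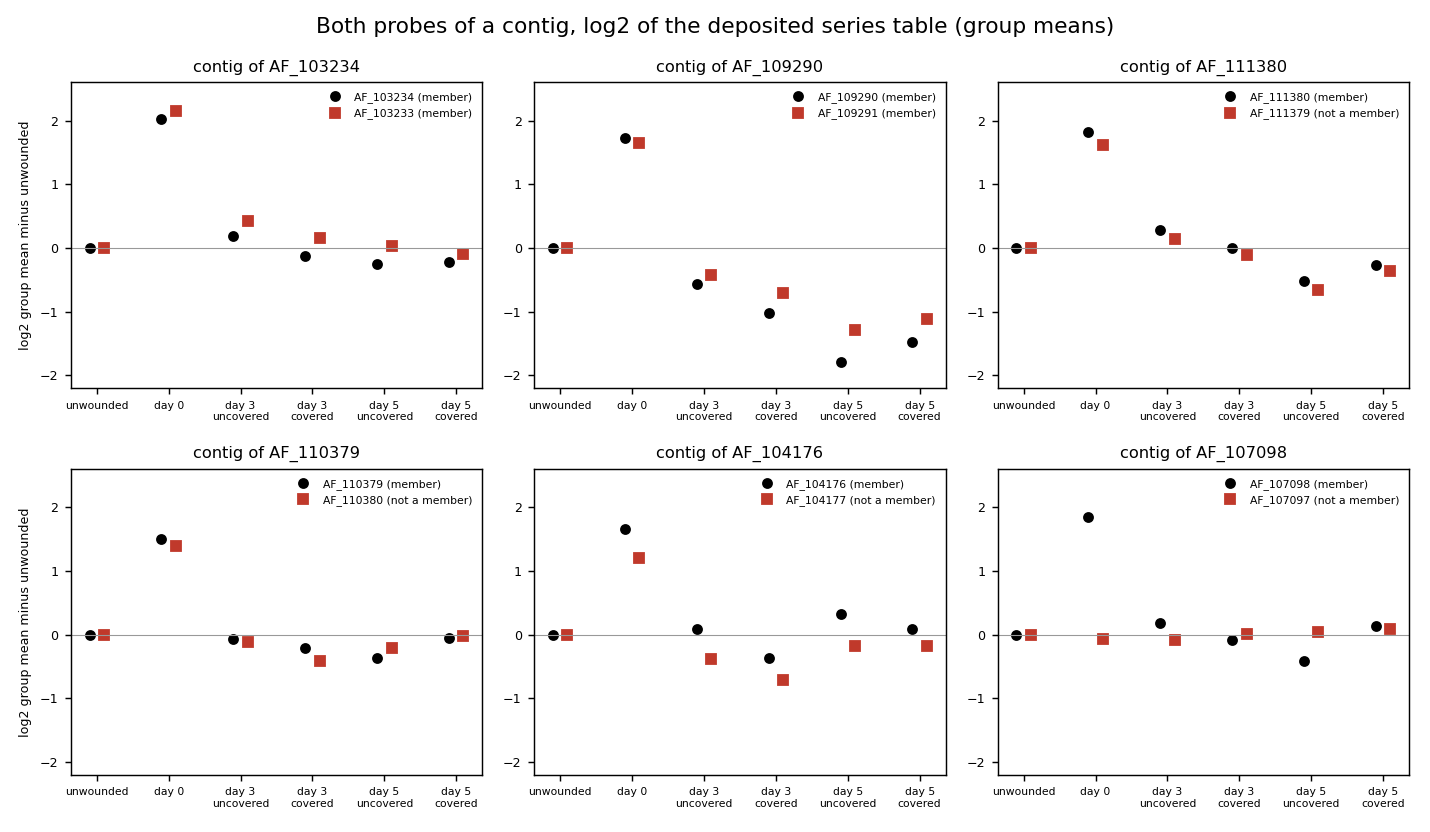
Group mean minus the unwounded mean (y axis, log2 of the deposited series table) in the 6 groups (x axis) for the 6 contigs that carry 2 AF probes. Circles are members, and squares are the other probe of the contig, which is a member in the first 2 panels. Both probes rise at day 0 in 5 panels, and in the last one UF_Ocu_AF_107097 stays within 0.1 of unwounded skin.

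Membership depended on the limits of the rule. The smallest of the 3 gaps that the rule requires was 1.84 for UF_Ocu_AF_103234, the largest such value, and 1.51 for UF_Ocu_AF_110379, the smallest. Just outside were UF_Ocu_AF_111379 at 1.48, UF_Ocu_AF_106892 at 1.45 and UF_Ocu_AF_112602 at 1.45. With a required gap of 2 no AF probe was left. Leaving out 1 array at a time gave 6 to 17 probes, and it was 17 without uncovered day 3 replicate 5 or 6 and 14 without day 0 replicate 4. The same rule on the scaled scanner signal found 35 probes, 7 of them members. UF_Ocu_AF_109290 and UF_Ocu_AF_109291 dropped out there because their day 3 arms differed by 0.74 and 0.54, the covered arm being lower. In the UN design class, which the rule leaves out, 2 of 8138 probes met all other conditions. UF_Ocu_UN_115721 was 2.42 above unwounded skin at day 0 and at least that far above both day 3 groups, and UF_Ocu_UN_116146 was 2.15 above unwounded skin, so the smallest of the 3 gaps was larger for each of them than for any of the 9 members. Their day 0 arrays spread more widely on the scaled scanner signal, with SDs of 0.98 and 0.95 against 0.21 to 0.63 for the members. The second probes of their contigs, UF_Ocu_UN_120847 and UF_Ocu_UN_116142, were 0.34 and 0.20 above unwounded skin at day 0. Those second probes were well above background on 1 and 8 of the 30 arrays.

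Among the AF probes that rose at closure, fewer had close day 3 arms than not. For all 9 members the covered day 3 mean was the lower one, by 0.15 to 0.47 in the deposited table and by 0.21 to 0.74 on the scaled scanner signal. Over the 255 AF probes raised at closure, the uncovered day 3 mean was above the covered one by at least 0.5 for 173, below it by as much for 1, and within 0.5 for 81. The median probe of the 255 was 1.86 above unwounded skin at day 0, 1.00 above it in uncovered and 0.14 above it in covered wounds at day 3, and 0.54 and 0.06 above it at day 5. For the 9 members the medians were 1.73 at day 0, 0.09 and -0.22 at day 3, and -0.36 and -0.09 at day 5. Among the 43 probes that were down in both arms, 32 were still at least 0.5 higher in uncovered than in covered wounds and none was higher in covered wounds by that much. These medians rest partly on the groups that chose the probes and are a description.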

How the data were processed

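Spot intensity was read with Agilent Feature Extraction 10.1.1.1, per the file headers. Its processed intensity, used here, is corrected for background and spatial trend, holds surrogates near background and has no scaling across arrays, per the file headers. Flags for detection, saturation and outliers are deposited with it. For the rule, log2 was taken of the authors' linear intensity in the deposited series table, for which the sources used here give neither background correction nor normalization. The submitters' processing notes name limma.

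Control and outlying spots were dropped, the spots of a probe averaged on the log2 scale, and each array's 75th percentile over 7446 probes subtracted. Probes detected well above background by at least 2 arrays (12342) were fitted in limma 3.58.1 (R 4.3.3) with 6 group means, and p-values were adjusted by the Benjamini-Hochberg method over all of them, with a threshold of 0.05. The code was tested on simulated data. All 9 members passed this filter. The number of arrays limits the precision. The members and lists were chosen with earlier results of these data known. All members are named, with the probes nearest to the rule's limits and the second probes of their contigs. Gene lists and cell type markers had been listed but none could be applied, because the files name no gene for these probes, so the labelled tissue could not be checked against markers.

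No label says which animal an array came from. The p-values therefore reflect the spread between samples alone, which may be technical, and ears of the same animal may be in both arms. Shared replicate numbers were checked for pairing over 26 pairs. The deviations of same-numbered arrays correlated with r from -0.72 to 0.49. Both ends come from comparisons with unwounded skin, whose 2 arrays deviate as mirror images. Same-numbered arrays on the same slide gave r from 0.0035 to 0.40, and the others spanned the full range. The numbers were not taken to pair samples, but this check cannot exclude pairing. Alternatives covered the scaling, background correction, dim-probe filter, slide, scan day, replicate number, array weights and left-out arrays.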

Additional observations from a re-analysis of the deposited data

Results flagged for a closer look

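A single array stood far from the rest of its group in 2 of 45 member and group sets, where the gap to the nearest array exceeded Dixon's critical value. Chance flags about 1 in 20 such sets. For UF_Ocu_AF_111380, uncovered day 3 replicate 5 read -1.10 and the next highest array -1.98. For UF_Ocu_AF_110379, covered day 5 replicate 1, an array of slide 6, read -4.74 and the next lowest -4.07.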

How the results depend on the processing

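All 9 members were lower at day 5 than at day 0 in both arms under every alternative run. Each of these runs kept members chosen as high at day 0, so each leans toward that fall. For covered day 5 against covered day 3 (3 members called), the count was 1 with normexp, with the authors' series table and with no filter on dim probes, 6 with array weights, and 1 to 3 with 1 array left out. For uncovered day 5 against uncovered day 3 (5 called), it was 3 with no filter on dim probes and 3 to 5 with 1 array left out. Against unwounded skin (2 called in each arm), the count was 1 with normexp in both arms, and 3 in uncovered wounds with slide as a fixed block. In covered wounds it was also 1 with slide as a fixed block, with array weights and without slide 6, and 1 to 2 with 1 array left out. Without uncovered day 3 replicates 5 and 6, an alternative chosen after seeing the data, uncovered day 5 against day 3 gave 4.

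The scaling moved the median of all tested probes by over 0.1. For uncovered day 5 against day 3 it was 0.27 here and 0.03 with the percentile over all probes. Over all tested probes the calls were 3504 higher and 2027 lower here, and 2290 higher and 2904 lower there, and the members gave 1 higher and 4 lower here, and 0 higher and 6 lower there. For covered day 5 against day 3 the split over all tested probes was 1860 higher and 887 lower here, and 1306 and 1252 there. Against day 0 it went from 5442 and 2639 to 3553 and 3871 in uncovered, and from 4701 and 2224 to 3265 and 3176 in covered wounds. Against unwounded skin it went from 2707 and 1278 to 1697 and 2214, and from 815 and 157 to 432 and 239. With normexp, all calls for uncovered day 5 against day 3 numbered 2255 in place of 5531.

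The replicate block gave 5 calls among the members for uncovered and 4 for covered day 5 against day 3, 9 and 9 against day 0, and 2 and 2 against unwounded skin. As no label says whether the numbers pair samples, these counts do not settle whether they do. The rule on the scanner signal found 35 probes, a gap of 2 found 0, and leaving out 1 array found 6 to 17. The causes of these changes were not tested. UF_Ocu_AF_109290 and UF_Ocu_AF_109291 were near background at day 5, which limits how far their fall can be measured.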
